A study of Mus musculus with 42 samples.

Results

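The imprinted growth genes H19, Dlk1, Meg3, Mest, Peg3, Plagl1, Cdkn1c, Grb10 and Ndn were followed in microarray data from liver, quadriceps muscle and visceral fat of female mice. These 9 genes were taken by name, and the array, which writes Meg3 as Gtl2, held 19 probes for them among 41174 probes for 27597 named genes. All mice were of the C57BL/6 strain. Wild-type (Wt) mice were compared with Akt1+/- mice, which carry 1 working copy of Akt1, a kinase that passes on insulin and insulin-like growth factor signals. The heterozygous line had been crossed back to C57BL/6, and the deletion was not limited to a tissue. In each tissue 3 arrays of each genotype came from mice of 8 weeks and 4 of each genotype from mice whose labels give 35 weeks, so that 42 arrays were used in all. The methods of the study give an older age than the labels for the second group. The labels do not say that each array is a separate mouse, so that p values measure the spread between these samples.

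An imprinted gene is read from the copy of 1 parent, because DNA methylation laid down in the egg or the sperm sets the copies of the parents apart. Many imprinted genes act on growth before birth and in young animals, and a group of them is known to be switched down together in several organs as body growth slows. Those of maternal origin tend to hold growth back, and those of paternal origin tend to promote it. Of the genes here, H19, Meg3, Cdkn1c and Grb10 are read from the maternal copy in most peripheral tissues, and Dlk1, Mest, Peg3, Plagl1 and Ndn from the paternal copy.

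The DNA just before the start of Meg3, Grb10 and Plagl1 is shown because these genes had the age differences that were called in all 3 tissues, in liver and muscle, and most strongly by adjusted p in muscle. Each line holds the 250 bases before a RefSeq transcript start (GRCm38.p6), written 5′ to 3′ on the strand of the gene, with each CG dinucleotide, the site of DNA methylation, in capitals.
Meg3, chr12:109540746-109540995, plus strand: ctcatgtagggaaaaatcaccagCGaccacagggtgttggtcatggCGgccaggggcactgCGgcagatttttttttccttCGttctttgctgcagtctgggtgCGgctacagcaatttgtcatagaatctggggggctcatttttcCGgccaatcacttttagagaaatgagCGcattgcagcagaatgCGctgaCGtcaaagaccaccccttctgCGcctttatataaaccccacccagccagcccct
Grb10, chr11:12037421-12037670, minus strand: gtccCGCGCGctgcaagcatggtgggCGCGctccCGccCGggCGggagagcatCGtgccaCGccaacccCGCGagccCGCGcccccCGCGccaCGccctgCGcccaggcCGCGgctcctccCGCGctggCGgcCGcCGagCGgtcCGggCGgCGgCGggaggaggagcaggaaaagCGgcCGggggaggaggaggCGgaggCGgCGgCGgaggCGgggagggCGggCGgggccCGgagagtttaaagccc
Plagl1, chr10:13090582-13090831, plus strand: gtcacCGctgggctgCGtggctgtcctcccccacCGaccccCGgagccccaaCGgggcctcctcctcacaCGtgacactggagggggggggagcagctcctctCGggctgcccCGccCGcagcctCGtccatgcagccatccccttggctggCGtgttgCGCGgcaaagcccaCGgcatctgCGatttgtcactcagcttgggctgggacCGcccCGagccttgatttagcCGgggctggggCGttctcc
The Grb10 window shown held 40 CG dinucleotides, as many as or more than 98.9% of the 32851 RefSeq promoter windows of this length, whose median was 6. The window of a second Grb10 start, poorer in CG and not shown, held 8. The Plagl1 window held 19, and the Meg3 window shown 10. Among the 11 windows of the 7 genes with an entry, the number ran from 0, at a second Meg3 start, to 40, and 9 windows were above the median. The Mest windows that begin at chr6:30737800 and chr6:30737803 share nearly all their bases and are counted apart. Entries matched Meg3, Dlk1, Grb10, Plagl1, Mest, Peg3 and Ndn, and H19 and Cdkn1c had none. On either strand, the letters TGACGTCA, the core of the cyclic AMP response element, occurred in 2 of the 11 windows, 57 bases before the Meg3 start and 178 before the Peg3 start, and in 1.55% of all windows. TATAAA occurred in the Meg3 window alone, 25 bases before the start, and in 12.4% of all windows. GGGGCCCC, which Plagl1 protein is known to bind, occurred in the Peg3 window and in 0.889% of all windows, and CAGCTG, an E-box of muscle regulators, in 1 of the 3 Mest windows and in 13% of all. These motifs were chosen after the sequences had been read, and a match is only a description of these letters.

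Levels are log2 intensities relative to the 75th percentile of each array, which is 0 on this scale, and the level of a probe is compared only with that of the same probe on other arrays. The 75th percentile itself ranged from 274.2 to 795.1 intensity units, and 56.53 to 68.64% of probes were well above background. Akt1 was lower on every Akt1+/- array than on any Wt array in each tissue and at each age, at 0.609 to 0.715 of the Wt level. Liver, skeletal muscle and adipocyte markers were each highest in their own tissue. Of the 8-week Akt1+/- arrays, liver replicates 1 and 3 and muscle replicate 3 stood highest of their tissue in the summed markers of another tissue, and the values are given where they touch a result. Each tissue was scanned on different slides and days at 8 and at 35 weeks, so that age and scan day cannot be told apart. The genotypes of a tissue and age were on separate slides, except that 1 slide of young muscle and 1 of young fat held both, and the genotypes of older fat were also scanned on different days. In liver at both ages and in older muscle and fat, genotype and slide therefore cannot be told apart.

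In quadriceps muscle, 8 of the 9 genes fell between 8 and 35 weeks in the average of both genotypes, against 14.4% of all 17107 genes tested (limma, adjusted p below 0.05). In 1 fit over all 42 arrays, H19 and Dlk1 did not pass there (adjusted p = 0.115 and 0.28), which leaves 6. In liver 3 of 8 fell (15.1% of all 17507 genes) and in fat 2 of 9 (9.32% of all 18345 genes). No member rose in muscle, liver or fat, where 16.8, 19.7 and 9.96% of all genes did, but H19 in liver was called higher at 35 weeks under 3 alternatives given with its values. The median age difference of the members was −0.54 log2 in muscle, −0.24 in liver and −0.23 in fat, beside 0.0065, 0.01 and 0.01 for all genes. Meg3 fell in all 3 tissues, Cdkn1c and Grb10 in liver and muscle, Ndn in muscle and fat, and H19, Dlk1, Plagl1 and Mest in muscle. Peg3 passed in no tissue with the scaling used here, and in liver and fat with others given with its values. In muscle, 5 of the 9 genes (Cdkn1c, H19, Meg3, Ndn and Plagl1) had every older array below every young one, which held for 4.45% of all genes. Of the 8 members tested in all 3 tissues, the age difference itself differed for 4 between liver and muscle, 4 between liver and fat and 4 between muscle and fat, against 22.4, 17.9 and 19% of the 15402 genes compared. Fitted with slide as a random effect, Plagl1 alone passed between muscle and fat, and of the liver and fat differences, those of Meg3 and H19 did not pass after normexp background correction with quantile normalization. In bulk tissue, fewer cells that read a gene and less RNA per cell cannot be told apart.

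**Figure D1:**
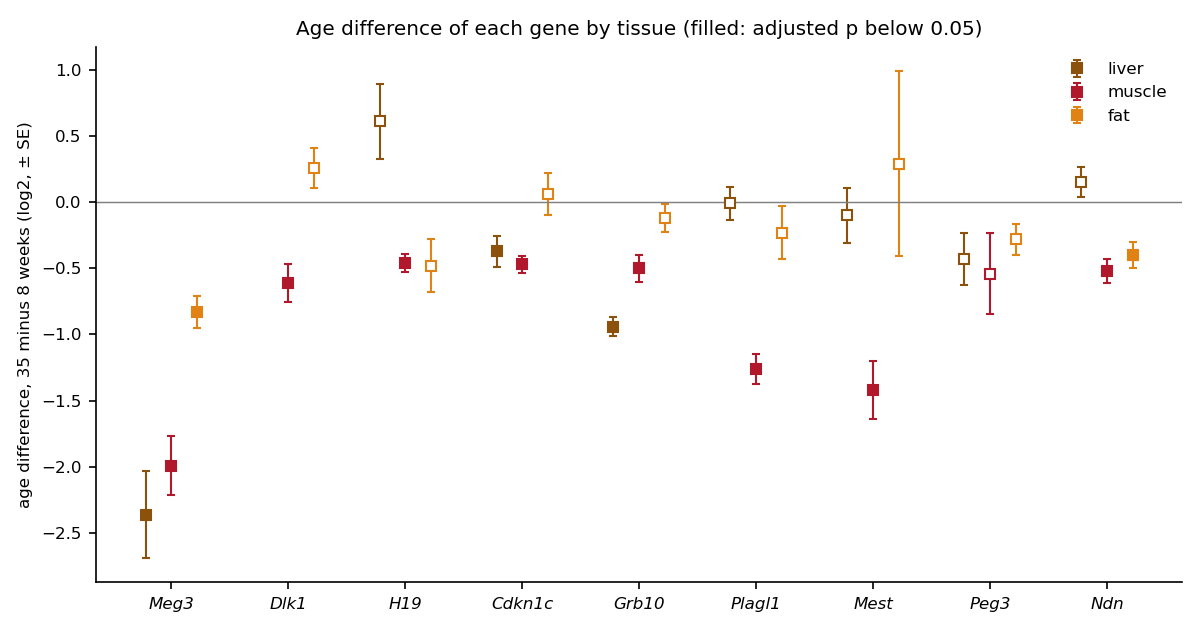
Age difference of each gene, the mean at 35 weeks minus the mean at 8 weeks over both genotypes, in log2 units on the vertical axis, with bars of 1 standard error. Squares are filled where the adjusted p was below 0.05. All 9 muscle values lie below 0, and Meg3 in liver, at −2.36, is the lowest of all.

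Meg3, a long RNA that makes no protein and lies in the same imprinted domain of chromosome 12 as Dlk1, had the greatest fall of the members tested in each tissue, which in liver leaves out Dlk1. Its probe lies at chr12:110019275-110019334 (mm8, the build of the array). In liver, the 3 Wt arrays at 8 weeks read −0.35, 0.97 and 1.32 and the 3 Akt1+/- arrays −0.88, 0.23 and −0.77. At 35 weeks the 4 Wt arrays read −1.63, −2.46, −2.63 and −2.34 and the 4 Akt1+/- arrays −1.77, −1.62, −3.27 and −2.43. Every array at 35 weeks was below every array at 8 weeks, which held for 3.35% of all liver genes. The age difference was −2.36 log2 (SE 0.329, adjusted p = 0.000252, limma), a 5.13-fold lower level.

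In muscle, Meg3 read 5.34, 5.16 and 4.05 in Wt and 5.15, 4.52 and 4.86 in Akt1+/- mice at 8 weeks. At 35 weeks it read 2.78, 2.91, 2.92 and 2.84 in Wt and 3.41, 3.12, 2.24 and 2.67 in Akt1+/- mice. The ages did not overlap, and the 4 older Wt arrays lay close together while the older Akt1+/- arrays were spread on both sides of them. The age difference was −1.99 (SE 0.22, adjusted p = 7.48e-05, limma), or 3.96-fold. In fat, Meg3 ran from 3.82 to 4.42 at 8 weeks (median 4.07, n = 6) and from 2.88 to 3.58 at 35 weeks (median 3.26, n = 8). These ranges did not overlap either, and the difference was −0.83 (SE 0.119, adjusted p = 0.000977), or 1.77-fold. Meg3 was thus the only member without overlap of the ages in fat, where 1.95% of all genes had none with the older group lower.

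In the fit used here, the fall of Meg3 was smaller in fat than in the other tissues, though neither difference passed under every alternative. The age difference in liver minus that in fat was −1.53 log2 (SE 0.356, adjusted p = 0.0025, limma over all 42 arrays), and that in muscle minus that in fat was −1.16 (adjusted p = 0.0206). The first did not pass after normexp background correction with quantile normalization, and the second did not with slide as a random effect. For liver minus muscle it was −0.37 (95% interval −1.1 to 0.35, adjusted p = 0.483). The other Meg3 probes mostly behaved alike. In muscle 3 of the 4 probes fell by −1.99 to −2.1 log2, and the dimmest, at chr12:110009155-110009214, was well above background on 6 of 6 young and 0 of 8 older arrays and was at least 1.43-fold higher at 8 weeks. The second probe tested in liver fell there by −2.44. In fat 3 probes fell, by −0.83 to −1.03, and the dimmest had a difference of −0.3 (adjusted p = 0.521).

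**Figure D2:**
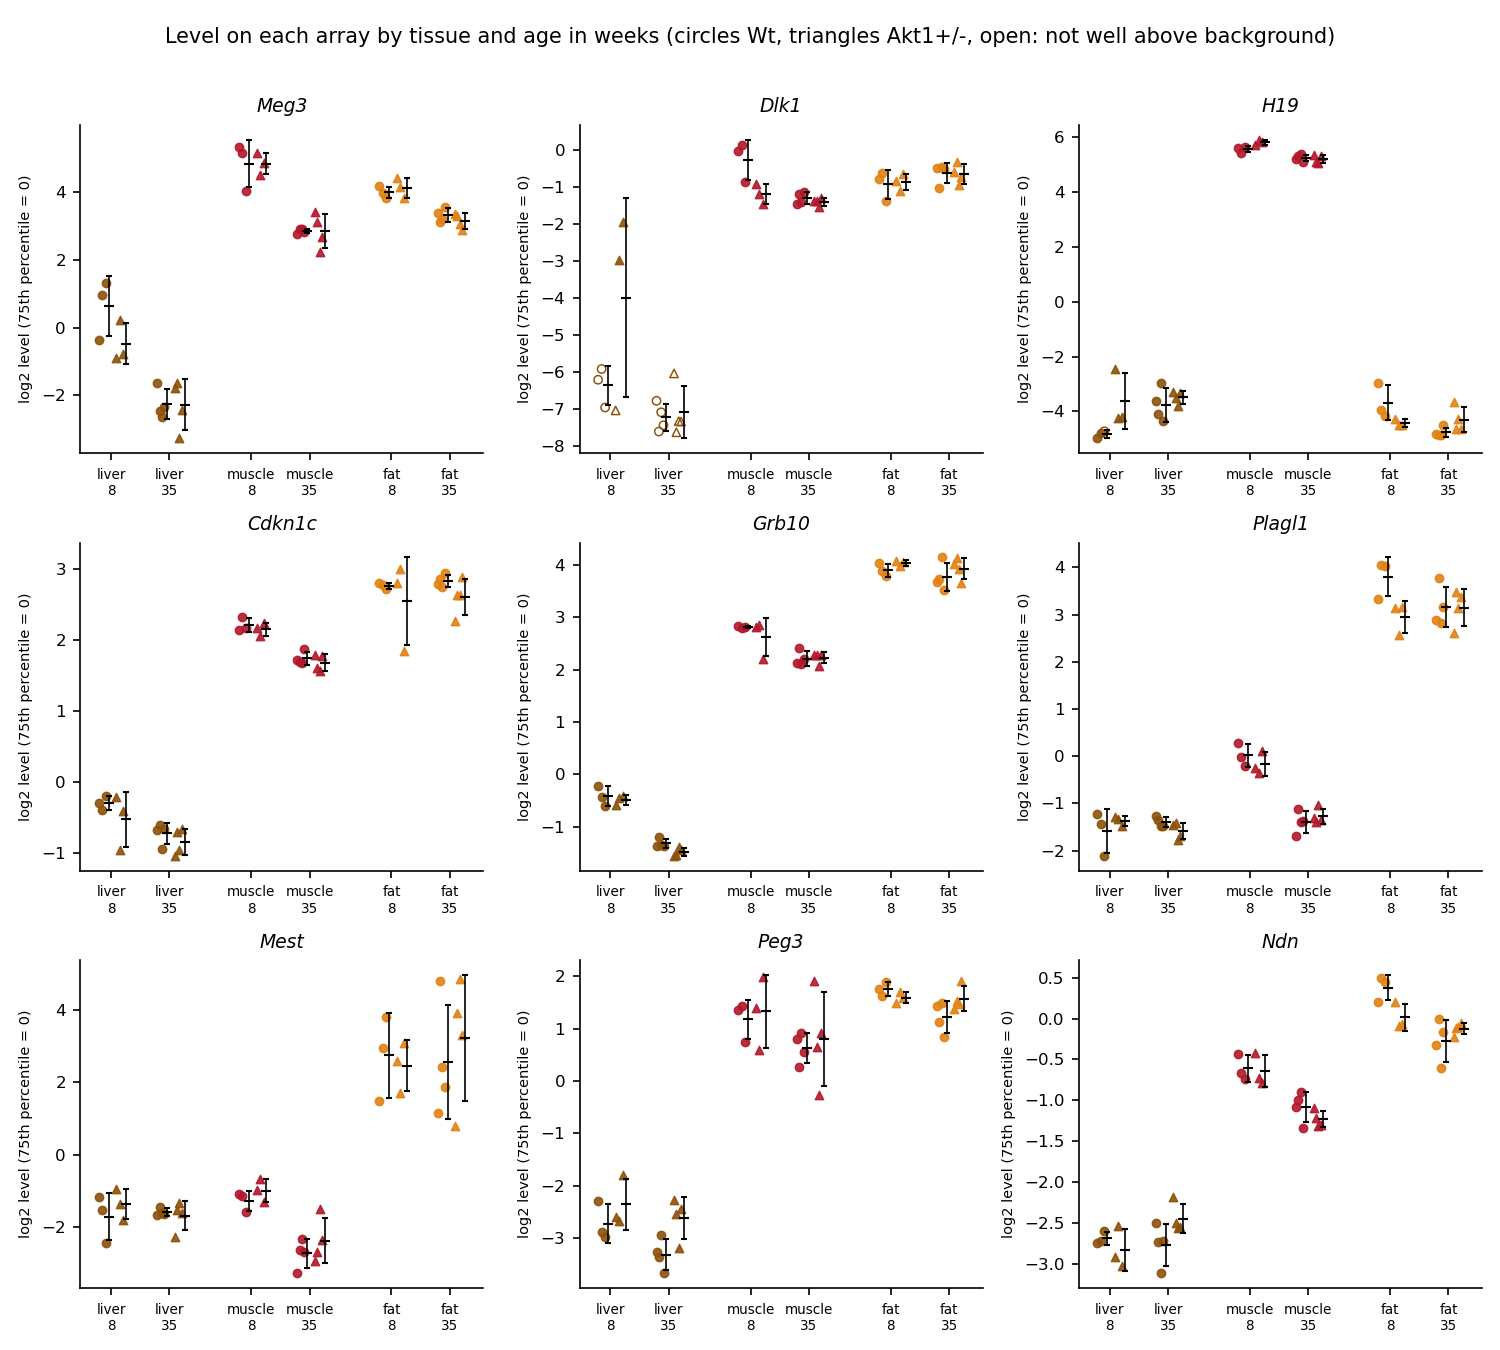
Level of each gene on each array (vertical axis, log2 relative to the 75th percentile of the array) by tissue and age in weeks, with circles for Wt, triangles for Akt1+/- and open symbols for arrays where the probe was not well above background. Black marks give group means ± SD (n = 3 at 8 weeks, n = 4 at 35 weeks). Meg3 steps down with age in each tissue, and H19 sits near 5.43 in muscle against −3.89 in liver and −4.33 in fat.

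Dlk1 (chr12:109908264-109908323), a membrane protein with EGF-like repeats that holds back the maturation of fat cell precursors, differed most between the genotypes of young muscle. Its muscle level at 8 weeks was −0.05, 0.11 and −0.89 on the 3 Wt arrays and −0.93, −1.19 and −1.48 on the 3 Akt1+/- arrays. At 35 weeks it was −1.46, −1.19, −1.42 and −1.14 in Wt and −1.38, −1.38, −1.56 and −1.31 in Akt1+/- mice. The young Wt arrays were thus all above the other groups, with 1 of them just above the highest young Akt1+/- array, which was the only one on the slide of the 3 Wt arrays. How many of all genes lay in this order was not counted. The age difference was −0.61 (SE 0.146, adjusted p = 0.00781, limma) over both genotypes, −1.02 (adjusted p = 0.0066) in Wt and −0.21 (adjusted p = 0.536) in Akt1+/- mice. In 1 fit over all 42 arrays the fall over both genotypes did not pass (adjusted p = 0.28). The difference between the values of the genotypes was 0.82 log2 (SE 0.292) and did not pass the adjustment (adjusted p = 0.507, limma).

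In fat, Dlk1 was at −1.39 to −0.63 at 8 weeks and at −1.05 to −0.33 at 35 weeks, which overlapped, and the difference was 0.26 (95% interval −0.06 to 0.59, adjusted p = 0.237). In liver its probe was not well above background on 12 of 14 arrays and it was not tested there. The 2 arrays on which it was measured were Akt1+/- livers at 8 weeks, replicate 2 at −2.99 and replicate 3 at −1.96. Against the 35-week Akt1+/- livers, the young Akt1+/- livers were at least 2.5-fold higher. Replicate 3 also had the highest sum of 8 adipocyte markers of any liver array, at 107 times the 75th percentile level, where the other 5 young livers had 13.6 to 31.6 and the 8 older ones, none with Dlk1 above background, 13.8 to 78.3. That sum came mostly from Cidec, a lipid droplet protein, at 6.6 log2 on this array and 1.9 to 4.5 on the other young livers. Of the defining adipocyte markers, Adipoq, Plin1, Lep and Retn were not well above background on any young liver. Replicate 3 had a sum of skeletal muscle markers of 0.881, with Mb at −1.08 and Myh4 at −3.95 well above background. Among the livers only Akt1+/- replicate 1 at 8 weeks, without Dlk1 above background, had a higher sum, at 2.26. The part of fat or muscle RNA in the Dlk1 signal of replicate 3 was not tested. The second Dlk1 probe was not well above background on any liver array. It fell in muscle by −0.5 (adjusted p = 0.0421).

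Cdkn1c (probe at chr7:143268238-143268297, mm8) encodes p57, an inhibitor of cyclin-dependent kinases that stops cell division. In muscle it ran from 2.06 to 2.33 at 8 weeks (median 2.17, n = 6) and from 1.57 to 1.88 at 35 weeks (median 1.71, n = 8). The ranges did not overlap, and the age difference was −0.47 (SE 0.0619, adjusted p = 0.000215, limma), the same in both genotypes to 2 decimals. In liver the ranges were −0.96 to −0.19 and −1.04 to −0.61, with 1 young Akt1+/- array among the older ones. Its fall there of −0.37 (SE 0.117, adjusted p = 0.0265) was small, and it lost the call without any 1 of 4 single arrays (Wt replicate 3 at either age, and Akt1+/- replicates 1 or 3 at 8 weeks). Without both of the last it was −0.16 (adjusted p = 0.323), an alternative chosen after the values were seen. In fat the difference was 0.06 (95% interval −0.28 to 0.41, adjusted p = 0.815). The age difference in muscle minus that in fat was −0.53 (adjusted p = 0.0276), and it did not pass with slide as a random effect.

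Grb10 (chr11:11830965-11831024), an adaptor protein that binds the insulin and IGF1 receptors and dampens their signal, fell most clearly in liver. There it ran from −0.6 to −0.22 at 8 weeks (median −0.45, n = 6) and from −1.55 to −1.19 at 35 weeks (median −1.38, n = 8). The ages were far apart without overlap, and the difference was −0.94 (SE 0.0715, adjusted p = 4.42e-06, limma), or 1.93-fold, the smallest adjusted p of any member and tissue. In muscle the difference was −0.5 (SE 0.0999, adjusted p = 0.00281). Of the young muscle arrays, 5 lay between 2.8 and 2.85, above all older arrays, and Akt1+/- replicate 3 lay at 2.21, among them. That array also had the highest summed level of liver markers in muscle, at 45.5 against 0.384 to 4.53 on the others, with all 7 markers well above background there and Alb, the albumin gene, at 5.18, and the part of liver RNA in its Grb10 signal was not tested. In fat, where Grb10 was highest, the ranges of 3.78 to 4.08 and 3.52 to 4.14 overlapped and the difference was −0.12 (95% interval −0.35 to 0.1, adjusted p = 0.44). The age difference of Grb10 differed between every pair of tissues, by −0.44 for liver minus muscle, −0.82 for liver minus fat and −0.38 for muscle minus fat (adjusted p = 0.014, 2.89e-05 and 0.0353, limma). With slide as a random effect, that between muscle and fat did not pass. All 3 Grb10 probes fell in muscle, by −0.5 to −0.83, and both that passed in liver fell there.

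H19 (chr7:142385254-142385313) is a long RNA without a protein, read from the maternal copy beside Igf2. It was 672-fold higher in muscle than in liver and 869-fold higher than in fat, and 178-fold and 201-fold higher after normexp background correction with quantile normalization over all arrays. In muscle it ran from 5.44 to 5.91 at 8 weeks (median 5.69, n = 6) and from 5.08 to 5.39 at 35 weeks (median 5.26, n = 8). The ranges came close without overlap, and the difference was −0.46 (SE 0.07, adjusted p = 0.000534, limma). In 1 fit over all 42 arrays it did not pass (adjusted p = 0.115). The second probe, at chr7:142385503-142385650, fell by −0.87 there (adjusted p = 4.56e-06).

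In liver and fat H19 was low and its values were spread, and it was well above background on 13 of 14 liver arrays and on all fat arrays. The 3 young Wt livers read −4.99, −4.78 and −4.73 and the 3 young Akt1+/- livers −2.44, −4.24 and −4.2. The older livers ran from −4.37 to −2.98, so that all of them were above the young Wt livers and below 1 Akt1+/- array. That array, replicate 1, also had the highest summed level of skeletal muscle markers of the liver arrays, at 2.26 against 0.335 to 0.881 on the others. That sum came mostly from Mb, the myoglobin gene, at 0.73, and Myh4, a fast myosin, at −2.18, while Ckm, Acta1, Myh1, Tnnt3 and Pvalb were not well above background on it. The part of muscle RNA in its H19 signal was not tested. The age difference in liver was 0.61 (SE 0.286, adjusted p = 0.12). It passed without this array (0.9, adjusted p = 0.00671), and in 1 fit over all 42 arrays (0.61, adjusted p = 0.0284, limma). Without this array and replicate 3 of the same group, an alternative chosen after the values were seen, it was 0.91 (adjusted p = 0.0246). The age difference of H19 in liver minus that in muscle was 1.07 (adjusted p = 0.0114), and minus that in fat 1.08 (adjusted p = 0.012). The latter did not pass after normexp background correction with quantile normalization.

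In fat, H19 fell in Wt mice, from −2.95, −3.95 and −4.16 to −4.84, −4.87, −4.85 and −4.51 (difference −1.08, SE 0.282, adjusted p = 0.027, limma). In Akt1+/- mice the values were −4.28, −4.51 and −4.5 at 8 weeks and −3.67, −4.64, −4.29 and −4.64 at 35 weeks, which overlapped (0.12, adjusted p = 0.823). The 2 age differences differed by 1.2 (SE 0.399), which did not pass the adjustment (adjusted p = 0.13, limma).

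Plagl1 (chr10:12821672-12821731), a zinc finger transcription factor that can stop the cell cycle, passed the test in muscle alone. At 8 weeks it read 0.28, −0.01 and −0.21 in Wt and −0.24, −0.36 and 0.12 in Akt1+/- muscle. At 35 weeks it read −1.68, −1.12, −1.4 and −1.38 in Wt and −1.3, −1.4, −1.04 and −1.34 in Akt1+/- muscle. No array of one age reached the range of the other, and the difference was −1.26 (SE 0.114, adjusted p = 1.93e-05, limma), or 2.4-fold. In liver the difference was −0.0094 (95% interval −0.28 to 0.26, adjusted p = 0.962) and in fat −0.23 (95% interval −0.65 to 0.2, adjusted p = 0.446). The age difference in liver minus that in muscle was 1.25 (adjusted p = 0.00012), and that in muscle minus that in fat was −1.03 (adjusted p = 0.00114). The second, dimmer Plagl1 probe did not pass in muscle (−0.49, adjusted p = 0.0695), where it was well above background on 2 of 8 older arrays.

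Mest (chr6:30698289-30698348), a protein of the alpha/beta hydrolase fold known to rise with the enlargement of fat cells, also fell in muscle. It ran there from −1.59 to −0.69 at 8 weeks (median −1.12, n = 6) and from −3.29 to −1.52 at 35 weeks (median −2.66, n = 8). Of the older arrays, 7 were below all young ones and 1, an Akt1+/- array, was just inside their range. The difference was −1.42 (SE 0.222, adjusted p = 0.000631, limma), or 2.68-fold, and was −1.46 in Wt and −1.39 in Akt1+/- mice.

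In fat, Mest varied more between arrays of 1 group than any other member. The Wt arrays read 1.48, 2.95 and 3.81 at 8 weeks and 1.14, 4.79, 2.42 and 1.88 at 35 weeks. The Akt1+/- arrays read 2.6, 1.69 and 3.09 at 8 weeks and 0.78, 3.92, 4.87 and 3.32 at 35 weeks. All 4 groups overlapped, and the age difference of 0.29 had a 95% interval of −1.23 to 1.8 (adjusted p = 0.808, limma), the widest interval of any member. In liver it was −0.1 (95% interval −0.55 to 0.35, adjusted p = 0.741). The age difference of Mest in muscle was not shown to differ from that in liver (1.33, adjusted p = 0.145) or fat (−1.71, adjusted p = 0.0646).

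Ndn (chr7:62227911-62227970) encodes necdin, a growth suppressor of the MAGE family. In muscle it ran from −0.79 to −0.42 at 8 weeks and from −1.34 to −0.9 at 35 weeks, without overlap (difference −0.52, SE 0.0879, adjusted p = 0.00102, limma). In fat it ran from −0.09 to 0.49 and from −0.61 to −0.01, where the 2 lowest young arrays, both Akt1+/-, lay among the older ones (difference −0.4, SE 0.097, adjusted p = 0.0147). The fall in fat was −0.65 in Wt mice (adjusted p = 0.0107) and −0.14 in Akt1+/- mice (adjusted p = 0.554), and the interaction did not pass (0.52, adjusted p = 0.169, limma). In liver the difference was 0.15 (95% interval −0.09 to 0.39). The age difference in liver minus that in muscle was 0.67 (adjusted p = 0.000853), and minus that in fat 0.54 (adjusted p = 0.00625).

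Peg3 (chr7:6311815-6311874), a zinc finger protein read from the paternal copy, had lower means at 35 weeks in each tissue without passing the test. Its muscle level ran from 0.6 to 1.99 at 8 weeks and from −0.26 to 1.91 at 35 weeks, a wide overlap (difference −0.54, SE 0.306, adjusted p = 0.2, limma). The difference was −0.43 in liver (adjusted p = 0.106) and −0.28 in fat (adjusted p = 0.117). With arrays scaled on their median, it passed in liver (−0.62, adjusted p = 0.0154). After normexp background correction with quantile normalization it passed in liver (−0.25, adjusted p = 0.0465) and in fat (−0.35, adjusted p = 0.0376). The second Peg3 probe, at chr7:6310149-6310208, was nearly level in muscle (means of 0.26 at 8 and 0.21 at 35 weeks) and liver (−3.38 and −3.45). In fat its means were 0.72 and 0.32. The third and dimmest had means of −4.71 and −5 in muscle and −4.28 and −4.64 in fat. It was well above background on 2 of 14 liver arrays.

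The call of each member was then read in each genotype by itself. In Wt muscle the same 8 genes fell (8.43% of all genes), and in Akt1+/- muscle 6 fell (5.66% of all genes), with values of −0.21 for Dlk1 and −0.4 for Grb10 (adjusted p = 0.536 and 0.0808, limma). In liver, Meg3 and Grb10 fell in both genotypes (10.9 and 4.69% of all genes fell). Meg3 was −2.92 in Wt and −1.8 in Akt1+/- livers, and Grb10 −0.9 and −0.99. In fat, H19, Meg3 and Ndn fell in Wt (6.24% of all genes) and Meg3 in Akt1+/- mice (4.8% of all genes).

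No member differed between the genotypes after adjustment (limma). The count was 0 of 8 in liver, 0 of 9 in muscle and 0 of 9 in fat, where 2.47, 0 and 0.6% of all genes were lower and 3.59, 0 and 0.229% higher in Akt1+/- mice. Akt1 itself passed this test in liver (−0.67) and fat (−0.55) but not in muscle (−0.58). The test in muscle thus missed the known difference, and its count says nothing particular to the members. At an unadjusted p below 0.05 there were 2, 1 and 1 members. These were Peg3 in liver (0.53 higher in Akt1+/-, adjusted p = 0.109) and H19 in liver (0.74, adjusted p = 0.129). The others were Dlk1 in muscle (−0.51, adjusted p = 0.141) and Plagl1 in fat (−0.43, adjusted p = 0.255). The share of all genes at that unadjusted threshold was not counted, so that these members are only listed. In 1 fit over all 42 arrays, H19 passed in liver. By the two-way test of the methods, without moderation, 0 members passed in each tissue after adjustment, and at its unadjusted threshold 1 did, Dlk1 in muscle. For that threshold too the share of all genes was not counted. For liver, and for muscle and fat at 35 weeks, these differences cannot be told apart from those between slides.

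The genotypes were also compared at each age by itself, where no member passed the adjustment. Dlk1 in young muscle was −0.92 (95% interval −1.4 to −0.44, adjusted p = 0.13, limma) and −0.1 (95% interval −0.52 to 0.31) at 35 weeks. Plagl1 in young fat read 3.34, 4.06 and 4.02 in Wt and 3.13, 2.57 and 3.17 in Akt1+/- mice (−0.85, adjusted p = 0.117). The third Wt array was on the slide of the Akt1+/- arrays. At 35 weeks its difference was −0.02 (95% interval −0.58 to 0.54). Meg3 in young liver was −1.12 (adjusted p = 0.222). The interaction of age and genotype was called for 0 members in each tissue (0.537, 0 and 1.57% of all genes). At an unadjusted p below 0.05 there were 0 members in liver, 1 in muscle (Dlk1) and 3 in fat (H19, Ndn and Peg3). How many of all genes passed at that unadjusted threshold was not counted.

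**Figure D3:**
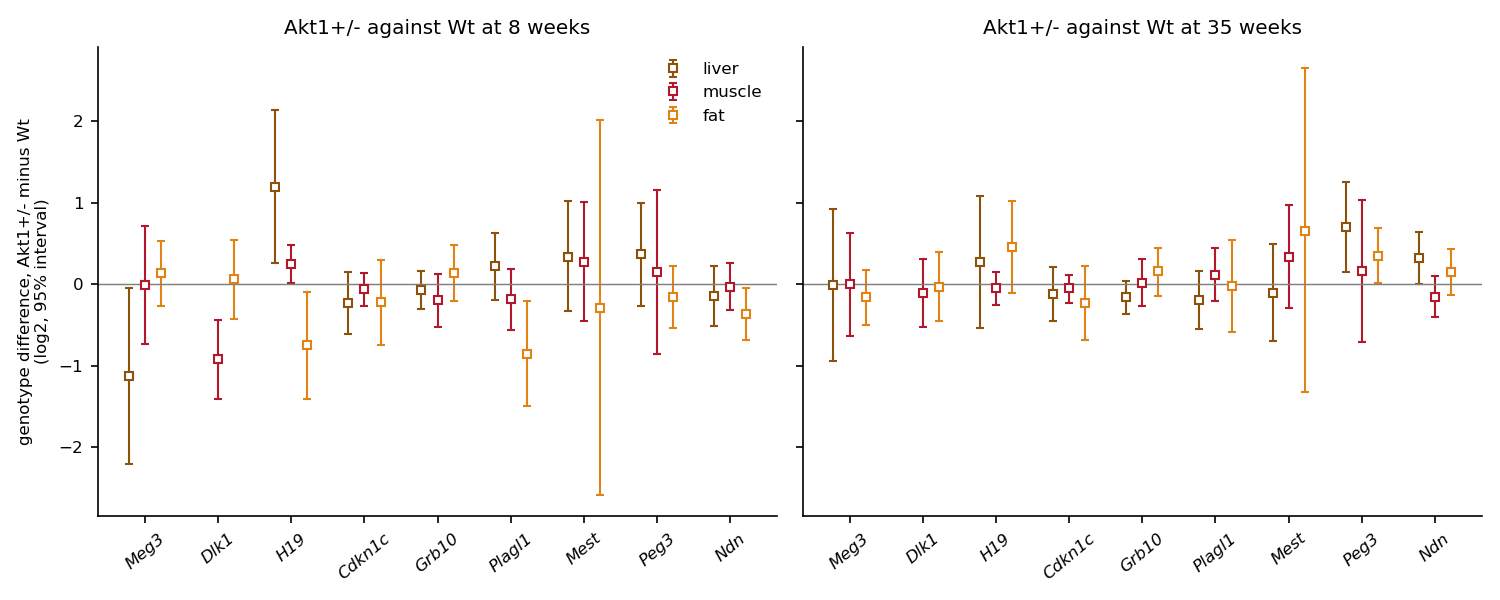
Genotype difference of each gene, the Akt1+/- mean minus the Wt mean in log2 units on the vertical axis, with 95% intervals from limma, at 8 weeks (left) and 35 weeks (right). Open squares did not pass the adjustment. Dlk1 in young muscle, at −0.92, has an interval that ends at −0.44, and the intervals of Mest in fat are the widest.

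The levels of the members, averaged over both ages and genotypes, differed between the tissues. H19 was highest in muscle. Mest, Plagl1, Grb10, Cdkn1c, Ndn and Peg3 were highest in fat, where Mest was 24.2-fold higher than in muscle and 20.3-fold higher than in liver. Plagl1 in fat was 15.7-fold higher than in muscle and 26.9-fold higher than in liver. Meg3 (3.71 ± 1.09 in muscle and 3.59 ± 0.48 in fat, SD, n = 14) and Dlk1 were at like levels in muscle and fat, which did not differ beyond their spread (adjusted p = 0.287 and 0.384, limma). With arrays scaled on their median instead, Meg3 was higher in muscle than in fat by 0.38 (adjusted p = 0.0456). The average hides the ages: Meg3 means in muscle and fat were 4.85 and 4.06 at 8 weeks and 2.86 and 3.24 at 35 weeks. Those of Dlk1 were −0.74 and −0.91 at 8 weeks and −1.35 and −0.65 at 35 weeks. Every member was lowest in liver except H19, which was lowest in fat (adjusted p = 0.0268 against liver), and Mest, whose liver and muscle levels did not differ beyond their spread (adjusted p = 0.476). Mest means in liver and muscle were −1.55 and −1.14 at 8 weeks and −1.64 and −2.56 at 35 weeks. For Grb10, Cdkn1c, Plagl1, Peg3 and Ndn the order was fat, muscle, liver, and each step passed the test. Plagl1 means in muscle and liver were −0.07 and −1.48 at 8 weeks but −1.33 and −1.49 at 35 weeks. Grb10 was 2.7-fold higher in fat than in muscle and 10.5-fold higher in muscle than in liver. The steps from fat to muscle were 1.67-fold for Cdkn1c, 1.85-fold for Ndn and 1.46-fold for Peg3.

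The neighbours of Meg3 fell with it in muscle. Rian and Mirg are long RNAs read from the maternal copy further along the same domain, where they hold small nucleolar RNAs and microRNAs. Rian, named here after its values were seen, read −0.4, −1.49 and −1.59 in Wt and −0.58, −1.65 and −1.21 in Akt1+/- muscle at 8 weeks. At 35 weeks it ran from −4.23 to −2.02, without overlap (difference −1.93, SE 0.343, adjusted p = 0.00145, limma). Mirg fell in muscle by −1.37 (adjusted p = 0.0221) and in fat by −0.82 (adjusted p = 0.00872). In older muscle the Mirg probe was well above background on 4 of 8 arrays, and 1 Wt array, at −2.65, was above all the young ones. In fat, Rian had a difference of −0.27 (adjusted p = 0.617). Neither was well above background on any liver array. Dio3, a thyroid hormone deiodinase at the far end of the domain and also named after its values were seen, had differences of −0.36 in liver, −0.14 in muscle and −0.36 in fat (adjusted p = 0.234, 0.769 and 0.283).

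**Figure D4:**
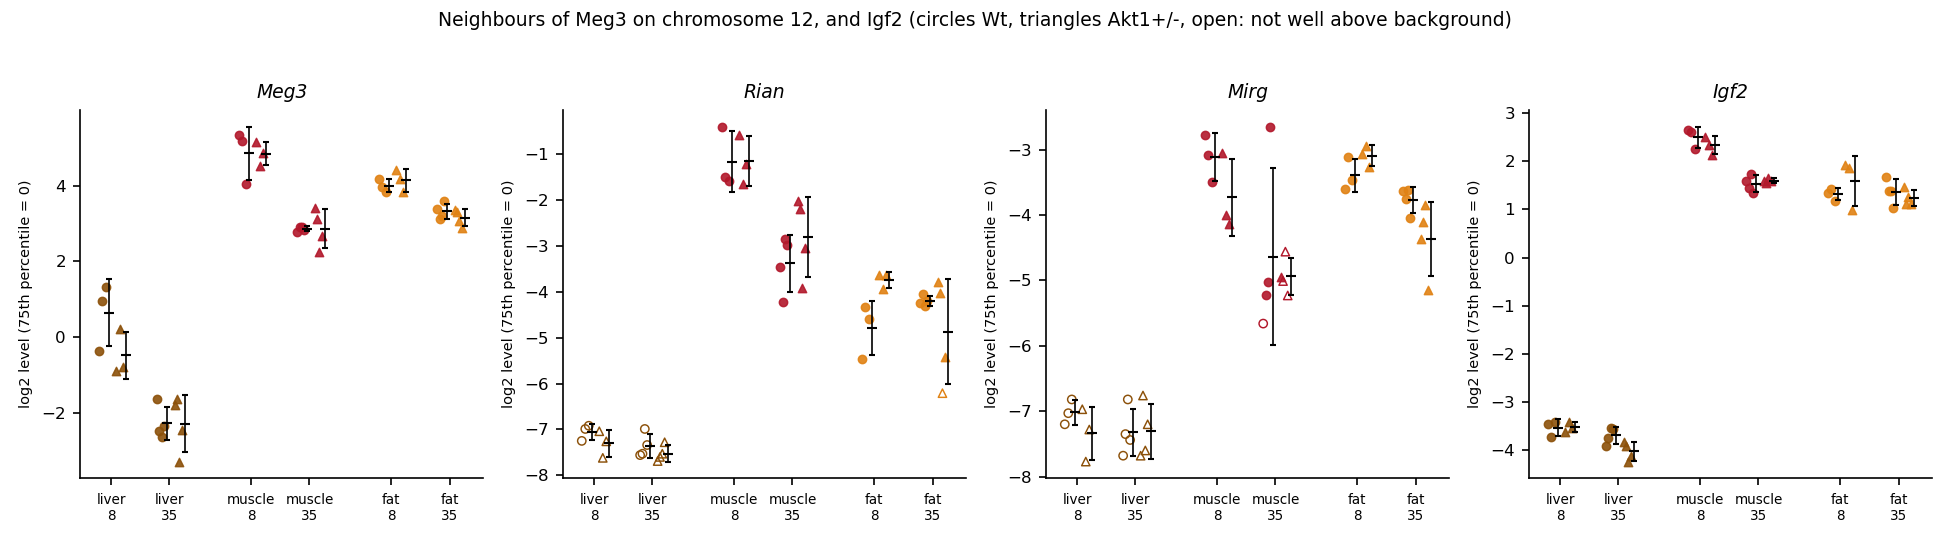
Level of Meg3, of its neighbours Rian and Mirg, and of Igf2 on each array (vertical axis, log2 relative to the 75th percentile of the array) by tissue and age in weeks, with open symbols where the probe was not well above background and black marks for group means ± SD. Rian lies from −1.65 to −0.4 in young muscle and from −4.23 to −2.02 in older muscle, and both Rian and Mirg are open in all liver arrays.

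Igf2, the insulin-like growth factor of the foetus that is read from the paternal copy beside H19, fell in muscle from a range of 2.14 to 2.64 to a range of 1.34 to 1.74, without overlap (difference −0.85, SE 0.0873, adjusted p = 4.24e-05, limma). In liver it was low, at −3.73 to −3.41 and −4.24 to −3.54, and fell by −0.33 (adjusted p = 0.0175). In fat the difference was −0.15 (95% interval −0.48 to 0.18, adjusted p = 0.515). Igf2r, the receptor that removes Igf2 from the cell surface, fell by −0.33 in muscle and −0.39 in fat (adjusted p = 0.00505 and 0.0272) and had a difference of −0.22 in liver (adjusted p = 0.0631).

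Of 63 other genes listed as imprinted, 59 were on the array. Which parental copies they were read from in liver, muscle or fat was not measured. In muscle 12 of 45 tested fell and 3 rose, in liver 11 of 41 fell and 5 rose, and in fat 9 of 54 fell and 7 rose. Of all genes, 14.4, 15.1 and 9.32% fell and 16.8, 19.7 and 9.96% rose in muscle, liver and fat. Their median age differences were −0.04, −0.14 and 0.0038. Gnas, which encodes the stimulatory G protein subunit, fell in all 3 tissues by −0.25 to −0.34. Gab1, a docking protein of growth factor receptors, fell in liver (−0.71) and fat (−0.64). Ppp1r9a, an actin-binding protein, fell in liver (−0.42) and muscle (−0.72), and Ube3a, a ubiquitin ligase, in liver (−0.3) and muscle (−0.42).

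Of 17 other genes known from foetal and juvenile growth, among them Igf2 again, 3 of 13 fell and 2 rose in muscle, 2 of 12 fell and 2 rose in liver, and 0 of 13 were called in fat, with medians of −0.11, −0.13 and −0.12. Of all genes 14.4, 15.1 and 9.32% fell in these tissues and 16.8, 19.7 and 9.96% rose. Apart from Igf2, Hmga2, a chromatin protein of embryonic cells, passed in more than 1 tissue and moved the other way. In liver its probe was well above background on 0 of 3 young Wt arrays and on all 4 older Wt arrays, which were at least 7.42-fold higher. In muscle it rose by 1.88 log2 (SE 0.32, adjusted p = 0.00111, limma).

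Genes of dividing cells were counted in the same way. Of 18 such genes, 8 of 16 tested fell and 1 rose in fat (median −0.76), 3 of 14 fell and 1 rose in liver (median −0.22), and 3 of 13 fell and 1 rose in muscle (median −0.39), beside falls of 9.32, 15.1 and 14.4% and rises of 9.96, 19.7 and 16.8% of all genes. The ends of the list were Ccnb2 (−1.17) and Mcm2 (0.39) in fat, Cdk1 (−1.23) and Top2a (0.6, adjusted p = 0.268) in liver, and Cdk1 and Pcna (0.18) in muscle. The muscle probe of Cdk1, the kinase that starts mitosis, was well above background on 4 of 6 young and 0 of 8 older arrays, and was at least 1.22-fold higher at 8 weeks.

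Markers of fibroblasts and fat cell precursors moved with age in the same direction as the members. Of 10 such markers, 7 fell in muscle, 7 fell in liver and 5 of 9 tested fell in fat, and none rose. Of all genes, 14.4, 15.1 and 9.32% fell in these tissues and 16.8, 19.7 and 9.96% rose. The median difference of the markers was −0.44 in muscle, −0.84 in liver and −0.52 in fat. The summed level of the markers relative to the 75th percentile was 162 to 233 in young and 64.9 to 99.9 in older muscle. It was 15.3 to 18.9 and 8.63 to 11.1 in liver, and 324 to 483 and 161 to 229 in fat. The collagen genes Col1a1, Col1a2 and Col3a1 fell in each tissue, Col1a1 by −2.41 in muscle. The sum is of linear levels, and in muscle and fat it came mostly from these collagens, at means of 5.29, 6.34 and 4.99 log2 in young muscle. Thy1, named after its values were seen, had differences of 0.0035 in muscle, −0.18 in liver and −0.16 in fat and did not pass. The part of these cells in the fall of the members was not tested. Of the 7 satellite cell and myoblast markers tested in muscle, 1 fell, near the 14.4% of all genes. The summed skeletal muscle markers were 3960 to 4650 in young and 4520 to 5200 in older muscle. Of these 8 markers 4 rose there (median 0.18), beside 16.8% of all genes. Other lists also held called markers. Of 8 adipocyte markers 3 rose in muscle (median 0.8), and of 7 lymphocyte markers 4 rose in liver (median 0.43) and 3 in fat (median 0.47). Of 6 macrophage markers 2 rose in liver (median 0.3) and 2 fell in fat (median −0.13). Of all genes, 16.8% rose in muscle, 19.7% in liver and 9.96% in fat, and 9.32% fell in fat. The part of these lists in the results for the members was not tested.

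**Figure D5:**
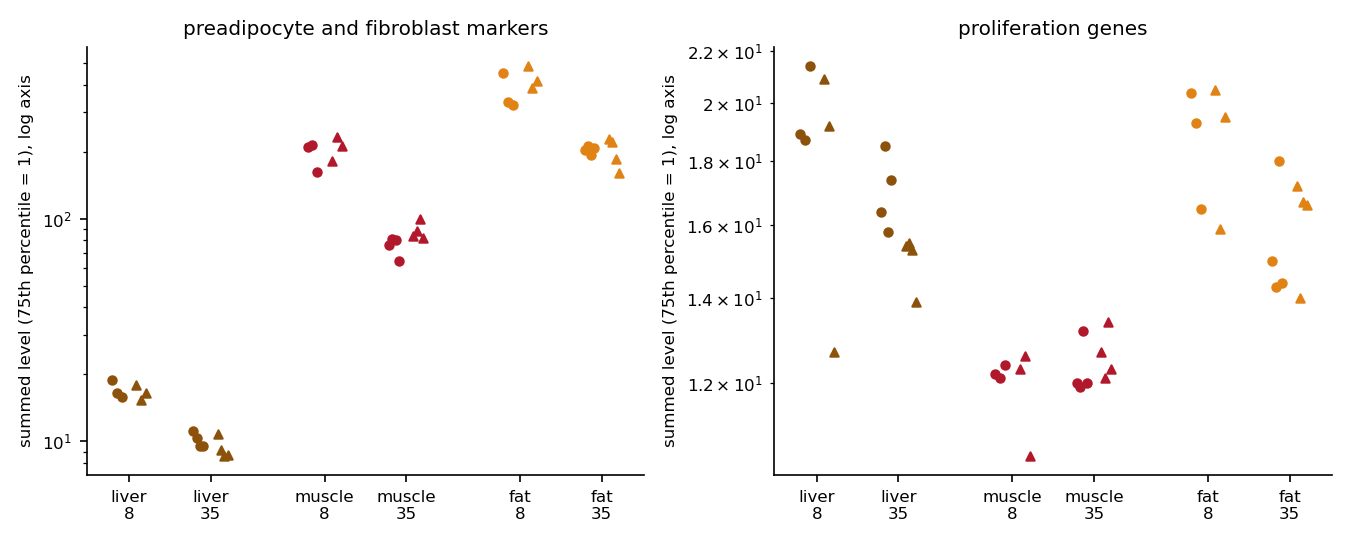
Summed level of markers of fibroblasts and fat cell precursors (left) and of genes of dividing cells (right) on each array, as multiples of the 75th percentile of the array on a log axis, by tissue and age in weeks, with circles for Wt and triangles for Akt1+/-. The fibroblast and precursor markers of muscle go from 162 to 233 at 8 weeks to 64.9 to 99.9 at 35 weeks, and the ages do not overlap in any tissue on the left. In muscle and fat the sum on the left comes mostly from the collagens Col1a1, Col1a2 and Col3a1.

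Among 15394 other genes, those whose levels went most closely with the mean of Meg3, Grb10, Cdkn1c and Ndn over the 42 arrays, after the mean of each tissue was removed, were Maz (r = 0.888), Smc4 (0.858), Gm4989 (0.857), Col1a1 (0.856) and Spats2l (0.852). All arrays share the 2 ages, which moves these genes together, and all 5 fell in each tissue. Among the members themselves, Meg3 and Grb10 (r = 0.75) and Plagl1 and Mest (0.68) went together most closely, and H19 least, from −0.18 with Grb10 to 0.29 with Ndn.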

How the data were processed

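The study hybridised RNA of each sample to an Agilent whole mouse 44K array in 1 colour, and 42 arrays were used here. Per the file headers, intensity values came from Feature Extraction 9.5.3.1, and the submitters' processing notes name version 9.1. The deposited processed signal is a background-subtracted intensity. The authors also deposited a table of log2 values, which correlated at 1 with the scaled values of the same arrays.

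Control spots and probes with an outlier spot (52 in liver, 105 in muscle, 29 in fat) were left out. The log2 processed signal minus the 75th percentile of the array was used, with no probe saturated. Probes entered the tests of a tissue when 3 or more arrays of any group had them flagged as well above background, and the brightest probe over all arrays stood for its gene. Genes were named through RefSeq by accession (24375 probes), by current or older symbols (6301 and 2426), or kept the name on the array (8072).

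Group means were fitted per tissue with limma 3.58.1 (R 4.3.3), with Benjamini-Hochberg adjustment over all genes tested and a threshold of 0.05. Age differences were compared between tissues in 1 fit over all arrays. Precision is limited by how many arrays each group holds. The procedure was tested on simulated data. Figures were drawn with matplotlib 3.10.9. Replicate numbers do not pair mice in the labels. Members and gene lists were chosen with earlier results of these data known. Alternatives were other normalizations, filters and probe choices, the two-way test of the methods, a replicate block, slide as a random effect, a fit over all arrays and leaving out each array. The named genes were the members, Akt1, Igf2, Igf2r, the other imprinted or growth genes called in the same direction in at least 2 tissues, the ends of the list of dividing cells and the 5 genes most like the members, and others are marked as chosen after their values were seen.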

Additional observations from a re-analysis of the deposited data

Results flagged for a closer look

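In 4 of the 54 groups of 4 arrays, 1 array lay far from the other 3 relative to the range of the group, which chance gives in about 5% of such groups. H19 in fat of Wt mice at 35 weeks had its highest array at −4.51 and the next at −4.84. Dlk1 in the same group had its lowest array at −1.05 and the next at −0.53. Grb10 in liver of Wt mice at 35 weeks had its highest array at −1.19 and the next at −1.34, and Grb10 in muscle of Akt1+/- mice at 35 weeks had its lowest at 2.07 and the next at 2.28.

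The age difference differed between tissues in the test of the difference itself (limma, adjusted p below 0.05) in 12 cases. For liver minus muscle these were Grb10 (−0.44), Plagl1 (1.25), H19 (1.07) and Ndn (0.67). For liver minus fat they were Meg3 (−1.53), Grb10 (−0.82), H19 (1.08) and Ndn (0.54), and for muscle minus fat Meg3 (−1.16), Grb10 (−0.38), Cdkn1c (−0.53) and Plagl1 (−1.03).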

How the results depend on the processing

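No age difference of a member reversed its direction while it was called. The number of members called for age in fat was 4 after normexp background correction and quantile normalization (H19, Meg3, Ndn and Peg3). The number whose age difference differed between liver and fat was 2 with that correction (Grb10 and Ndn), and between muscle and fat it was 1 with the slide as a random block (Plagl1). In 1 fit over all 42 arrays, 1 member was called for genotype in liver (H19). The causes were not tested. Leaving out 1 array at a time gave 2 to 3 members called for age in liver, 8 in each case in muscle and 2 to 3 in fat. Such fits gave 0 for genotype and interaction in each tissue, and 4 to 4, 4 to 5 and 3 to 5 for the differences of liver and muscle, liver and fat, and muscle and fat. With the replicate number as a block, the counts for age were 3, 8 and 2 in liver, muscle and fat, those for genotype and interaction 0, and those for the tissue differences 4, 4 and 5. Same-numbered arrays of both genotypes deviated together at 35 weeks (r = 0.108 to 0.522, 10 of 12 best with their own number) and not at 8 weeks (r = −0.197 to 0.072), so that the numbers were not taken as pairs. At 35 weeks same-numbered arrays also held the same position on their slides, and at 8 weeks none did. The shared deviation therefore cannot be told apart from position on the slide.

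The muscle calls of H19 and Dlk1 were lost in 1 fit over all 42 arrays (adjusted p = 0.115 and 0.28, limma). The age difference of H19 in liver was 0.9 without Akt1+/- replicate 1 at 8 weeks (adjusted p = 0.00671, limma). Scaling on the median moved the median of all liver genes by age to −0.18 and by genotype to −0.11.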
